A study of Mus musculus with 18 samples.

Results

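Undifferentiated *Tsix*-stop ES cells without *Kdm6a* were compared with wt ES cells at D0, before differentiation into embryoid bodies. The comparison holds 4 of the 18 libraries of the series, chosen by their labels: 2 *Kdm6a* KO and 2 wt libraries. *Tsix*-stop is a female mouse ES cell line from a cross of a strain-129 mother with *Mus castaneus* (*cast*), in which a transcriptional stop signal sits in *Tsix* on the maternal X chromosome, so wt, KO and control cells all carry that insertion. The KO was made with CRISPR/Cas9 guides that delete a stretch from exon 2 to exon 4 of *Kdm6a* on both alleles. The ES cells were grown on inactivated fibroblast feeders in medium with serum and LIF, and feeders were depleted before collection. The study used 2 homozygous KO clones, and the labels do not assign either KO library to a clone. A single CRISPR control library at D0, from cells that went through the CRISPR/Cas9 treatment without acquiring a deletion, is given beside the 4 libraries and enters their test only in alternative fits. The labels of the KO and CRISPR control libraries are in doubt, since the values of the control were deposited under the name of a KO replicate and those of both KO libraries under replicate numbers other than their labels give. Groups follow the labels throughout. The study's methods call the wt libraries biological replicates and trace the KO libraries to the 2 clones. The spread within KO can therefore hold differences between clones. Both KO libraries lacked *cast* reads over the same stretch of chromosome 6, described below. Whether the 2 clones arose independently of each other was not tested.

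KDM6A (UTX) is a demethylase that removes the repressive mark H3K27me3, which the PRC2 complex deposits, and it also works within the KMT2C/KMT2D complex at enhancers. Mouse ES cells in serum and LIF hold a network of core pluripotency factors (POU5F1, SOX2, NANOG) and of naive factors, such as KLF4 and ESRRB, that keep lineage genes at low levels. Many lineage genes carry H3K27me3 in this state, and ES cell cultures shift readily between naive and more advanced states.

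The 5 D0 libraries held 61955226 to 68796172 counts. Levels of a gene are given in CPM, counts scaled by library size and TMM factor, in each library, and comparisons between genes use TPM, which also divides by transcript length. Of the 19 core pluripotency markers 18 were at 10 TPM or more in every D0 library, as were 31 of the 33 naive markers. The markers of feeder fibroblasts summed to 192 and 241 CPM in wt, 161 and 167 in KO, and the CRISPR control had 162. Of these 34 genes 10 were under 1 TPM in every D0 library, 3 were at 10 TPM or more and *Fap* had no read. In bulk RNA, fewer cells of a type and less RNA per cell cannot be told apart. *Kdm6a* itself had 139 and 208 CPM in wt, 129.4 and 48.4 in KO, with 128 in the CRISPR control. The library labelled KO replicate 1 was therefore near wt replicate 1 and the CRISPR control, and the difference did not pass the test (log2 fold change -0.97 ± 0.56 (SE), FDR = 0.30). Reads from the exons that remain are counted with the gene, so this gene-level value does not check the deletion.

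A gene was called changed at an FDR of at most 0.1 in edgeR's quasi-likelihood test, with Benjamini-Hochberg adjustment over 13121 genes, and a change of at least 2-fold. Between KO and wt ES cells 1059 genes were called, which is 8.07% of the genes tested. Of these, 653 genes were lower in KO (4.98%) and 406 were higher (3.09%). Between the means of KO and wt 1096 genes stood at least 2-fold apart, against 294 between the wt libraries and 362 between the KO libraries. With each of the 4 libraries left out in turn, 496 genes, or 3.78% of those tested, were called in the same direction every time, 344 of them lower and 152 higher. Without the library labelled KO replicate 1, which had the *Kdm6a* level of the CRISPR control, 978 genes were called. With library totals in place of TMM factors the share of calls that were higher rose from 38.3% to 44.4%.

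The CRISPR control lay closer to KO than to wt. At 1280 of the tested genes it stood at least 2-fold from the mean of wt, and at 689 genes at least 2-fold from the mean of KO. Among the 1059 genes called, the CRISPR control was at least 2-fold away from both wt libraries in the direction of KO at 516 genes (48.7%). It was at least 2-fold away from both KO libraries in the direction of wt at 136 genes (12.8%). Without the library labelled KO replicate 1 the latter count was 269. Both held at 11 of these genes, and neither held at 418. The pattern was alike in either direction of change, with 337 of 653 lower genes and 179 of 406 higher genes on the KO side. In an alternative fit with the CRISPR control libraries counted as wt, 20 genes were called, 12 of them lower and 8 higher. At genes where the control followed KO, the deletion cannot be told apart from CRISPR treatment and growth from a clone.

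**Figure D1:**
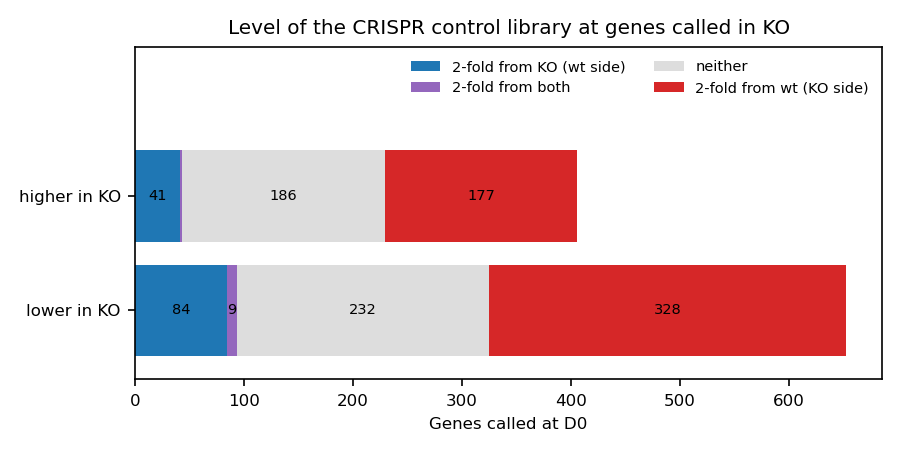
Genes called between KO and wt at D0, split by the level of the single CRISPR control library (x axis, number of genes). Blue marks genes where the control was at least 2-fold from both KO libraries on the wt side, red those where it was at least 2-fold from both wt libraries on the KO side, purple both and grey neither (9 of the lower and 2 of the higher genes count on both sides). The KO side is the larger colored share in both bars.

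The allelic reads showed a stretch of chromosome 6 that had lost the *cast* allele in both KO libraries. From *Cntnap2* to *Prickle2* (GRCm38 chromosome 6, 45059357 to 92706155, 47.6 Mb) the median share of SNP reads from the maternal, strain-129 genome (maternal share) was 100% in both KO libraries, against 58.7% and 61.2% in wt, and the CRISPR control had 51.7%. The next gene, *Adamts9*, had maternal shares of 46.0% and 41.7% in KO. Of 221 genes tested in the stretch, 201 had a lower value in KO, and the median over the stretch was -0.60 on the log2 scale against -0.0047 for all genes tested, while the median of the CRISPR control minus wt was 0.28. The stretch held 34 genes called lower and 2 called higher, which is 16.3% of its genes. It carries *Ezh2*, *Gata2*, *Evx1*, *Kdm3a*, *Stk31*, *Nod1*, *Retsat* and the *Hoxa* cluster, and the part of the allelic loss in these calls was not tested.

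Other chromosomes differed in allelic balance without a full loss. On chromosome 12 the maternal share was 35.4% and 35.3% in wt, 58.2% and 53.5% in KO, with 38.2% in the CRISPR control, and the median log2 fold change of its 467 tested genes was -0.15. On chromosome 8 from 70 to 130 Mb, the medians of 10-Mb windows were 41.5% to 45.6% in wt, against 48.97% to 53.4% in KO, with 48.7% to 51.7% in the CRISPR control. The 470 genes tested there had a median of -0.35 in KO and of -0.37 in the CRISPR control, both against wt. In the last 2 windows of the X chromosome the maternal share was 36.1% to 40.4% in wt and 47.1% to 51.5% in KO. The CRISPR control had 48.8% to 52.2% there. Expression in these windows went the other way, with a median of 0.36 in KO and 0.43 in the CRISPR control over 79 genes. Without every window whose share differed between KO and wt by over 5 percentage points, 945 of 11834 genes were called, so most calls lay elsewhere.

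**Figure D2:**
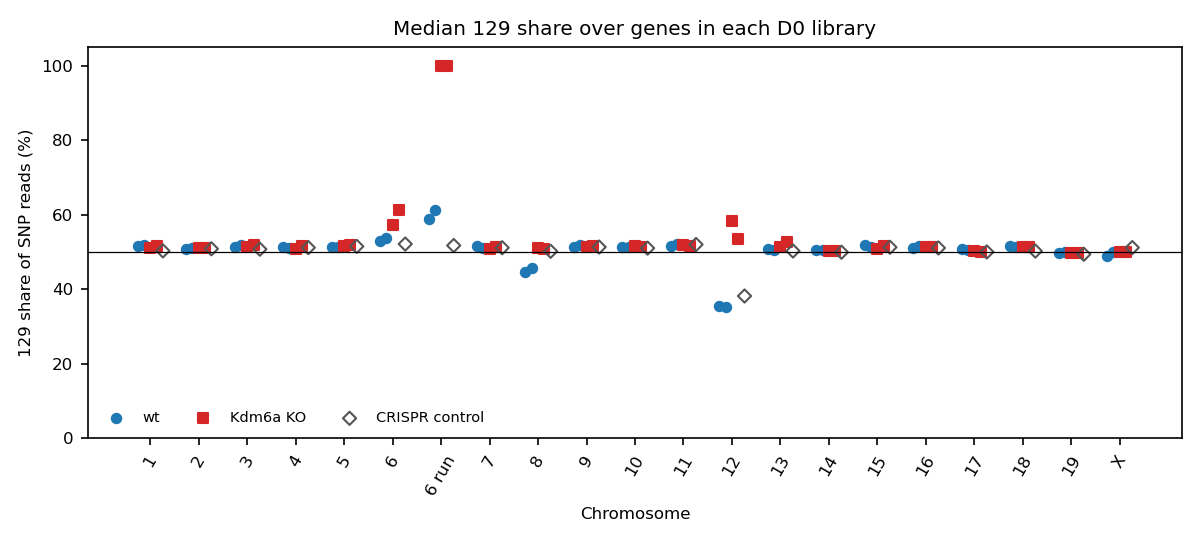
Median share of SNP reads from the maternal, strain-129 allele (y axis, percent) over the genes of each chromosome (x axis) in each D0 library: wt (blue circles), KO (red squares) and the CRISPR control (open diamonds). The column 6 run is the stretch of chromosome 6 from *Cntnap2* to *Prickle2*, where both KO libraries are at 100%, and chromosome 12 is near 35% in wt and above 53% in KO.

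Among called genes with at least 5 TPM in wt or KO, the 12 largest falls ran from -3.51 to -4.63 on the log2 scale. *Liph*, which codes for a lipase that makes lysophosphatidic acid, fell from 59.5 and 47.5 CPM in wt to 3.31 and 3.35 in KO, with 4.76 in the CRISPR control (log2 fold change -4.01 ± 0.19 (SE), FDR = 0.00015). *Plet1*, a surface protein of trophoblast progenitors, had 8.29 and 9.14 CPM in wt, 0.331 and 0.514 in KO, with 0.923 in the CRISPR control (log2 fold change -4.35 ± 0.38 (SE), FDR = 0.00084). *Crxos*, an oocyte and ES cell homeobox gene, stood at 72.3 and 52.4 CPM in wt, 3.69 and 7.23 in KO, with 8.65 in the CRISPR control (log2 fold change -3.51 ± 0.33 (SE), FDR = 0.0011). The rule that chose these 3 genes required wt and KO values that do not overlap, and the CRISPR control lay on the KO side each time. *Lst1* (-4.16) and *Arhgdib* (-3.62), both known from blood cells, and *Ripply1* (-3.76), a repressor of somite patterning, fell likewise. The largest fall, of the allantoicase gene *Allc* (log2 fold change -4.63 ± 0.54 (SE), FDR = 0.0020), left the CRISPR control at 1.35 CPM, between 7.06 and 4.89 in wt and 0.166 and 0.311 in KO. *Gimap9*, *Nod1* and *Slc41a3* were also among the 12 largest falls, and all lie in the stretch of chromosome 6 without *cast* reads. *Gimap9* belongs to a family of similar genes, so its count is less certain.

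Among the rises, *Aldh1a3*, which codes for an enzyme that makes retinoic acid, went from 4.94 and 4.98 CPM in wt to 65.3 and 46.4 in KO, and the CRISPR control reached 106 (log2 fold change 3.49 ± 0.43 (SE), FDR = 0.0026). *Fst*, which codes for follistatin, a secreted inhibitor of activin, rose from 2.49 and 2.46 CPM to 9.24 and 29.3 (log2 fold change 2.96 ± 0.48 (SE), FDR = 0.0073), with 7.902 in the CRISPR control. The KO libraries stood far apart at *Fst*, and both were above wt. *Gm13889* (3.99) rose most, and the transcription factor gene *Rfx4* (3.18), the neurofilament gene *Nefm* (2.57) and the prostaglandin synthase gene *Ptgs2* (2.53) rose as well. *Sp5*, a direct target of Wnt signaling, was called at 1.45 and 1.99 CPM in wt and 3.89 and 19.3 in KO (log2 fold change 2.76, FDR = 0.036). That call rested on KO replicate 2 and on both wt libraries: the log2 fold change was 1.18 (FDR = 0.22) without KO replicate 2, 2.55 (FDR = 0.19) without wt replicate 1 and 2.999 (FDR = 0.11) without wt replicate 2.

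**Figure D3:**
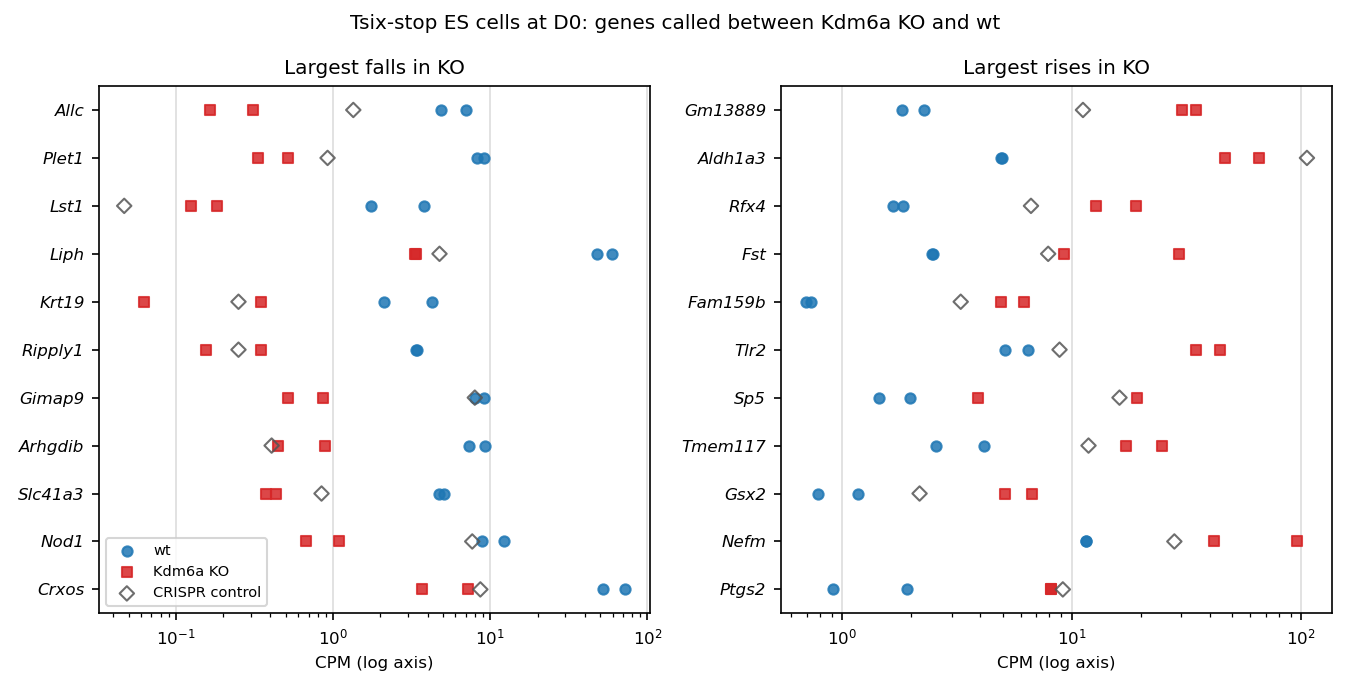
CPM on a log axis of 11 of the 12 called genes with the largest falls (left) and 11 of the 12 with the largest rises (right) among genes that reached 5 TPM in the mean of wt or KO, in wt (blue circles), KO (red squares) and CRISPR control (open diamonds) libraries. KO and wt do not overlap by the rule that chose the genes, and the CRISPR control lies with KO at *Plet1*, *Liph* and *Aldh1a3* and with wt at *Gimap9* and *Nod1*.

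To describe pathways and cell states, 38 lists of genes were compared with all genes tested by their calls and by their median log2 fold change. The lists with the lowest medians among those with at least 10 tested genes were feeder fibroblast genes (-1.18, but 0.0065 without wt replicate 2), epithelial junctions and keratins (-0.57), trophoblast (-0.53), basement membrane and collagens (-0.47), glycolysis (-0.44) and the hypoxia response (-0.41). With the filter on low counts set on the D0 libraries alone, the epithelial median was -0.22. The highest medians were those of Wnt signaling (0.35), X-linked genes that escape inactivation (0.28) and Nodal, activin and BMP signaling (0.26). For the escape genes it was 0.037 outside the windows of unequal maternal share. The lists of cholesterol synthesis, of X inactivation regulators and of the KDM6 and KMT2C/KMT2D complex had no called member. By the same test 8.07% of all genes were called, which is the share to set beside each count of calls below. The lists share a few members. *Tcf15*, *D1Pas1*, *H19*, *Dio3*, *Lrp2*, *Dhrs3*, *Lefty2*, *Inhbb*, *Id3*, *Spred1*, *Dsp*, *Cldn6*, *Col1a1*, *Epha7* and *Retsat* are named in what follows although they fell outside the naming rule, after their values were seen. The same holds for *Egfl7*, *Robo4*, *Ier3*, *Fgfbp1*, *Fos*, *Col4a2* and *Foxf1*. The CRISPR control minus wt had medians of -0.66 for the epithelial list and -0.40 for the basement membrane list, close to those of KO, and of -0.072 for the trophoblast list.

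**Figure D4:**
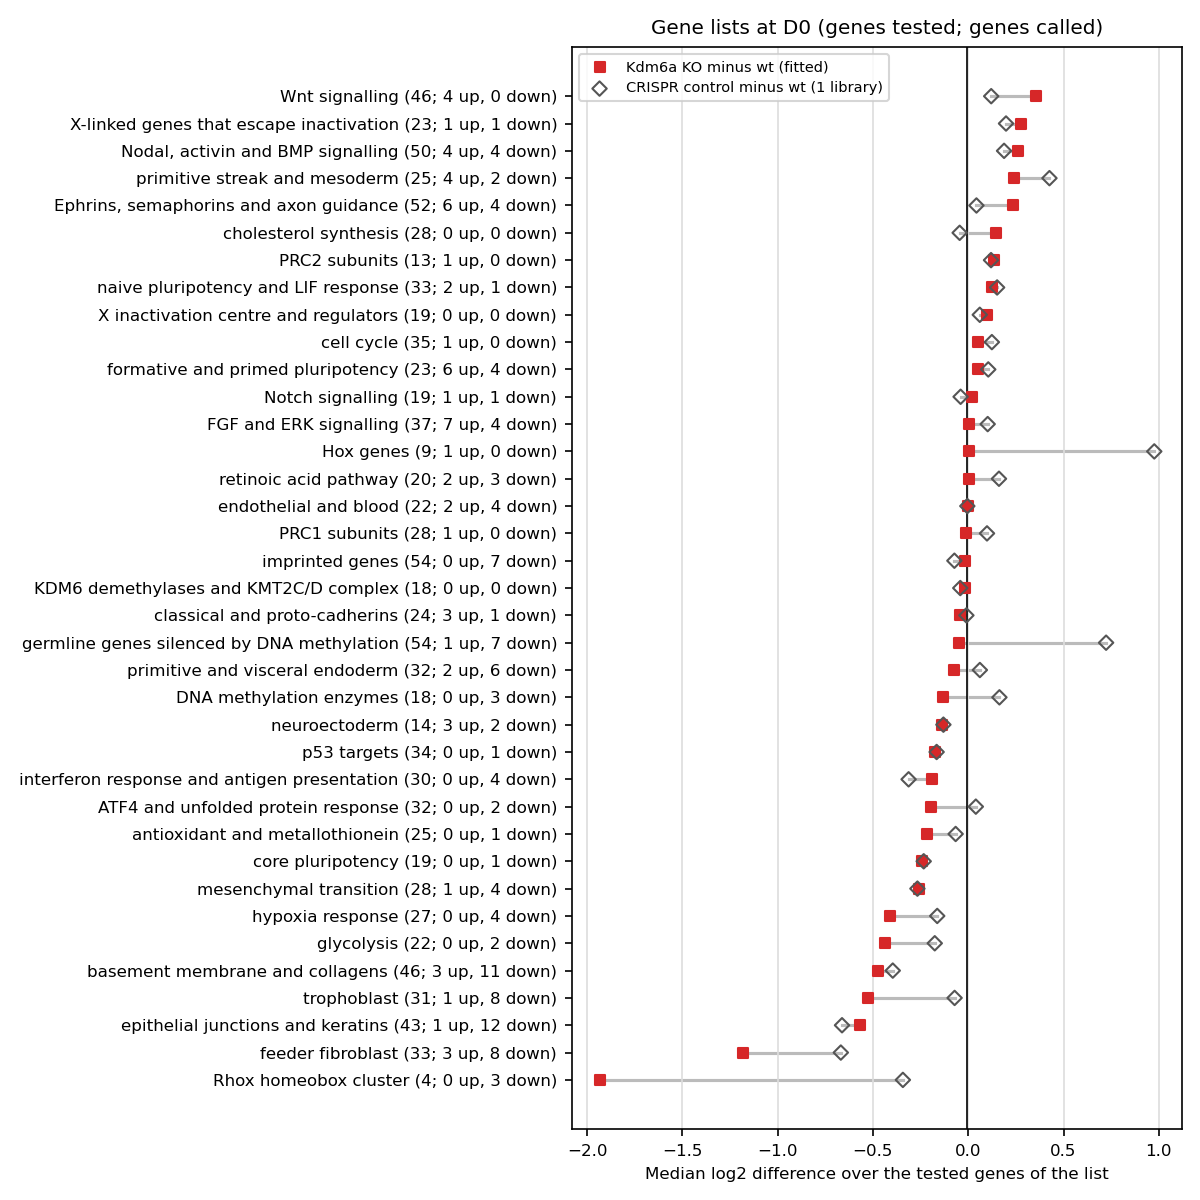
Median log2 difference (x axis) over the tested genes of each list for KO minus wt (red squares) and for the single CRISPR control library minus wt (open diamonds), with the genes tested and called in parentheses and the median of all genes as a vertical line. The epithelial and basement membrane lists are low in both, while the germline and *Hox* lists are near 0 in KO and at 0.72 and 0.98 in the CRISPR control. A list with 3 tested genes, of the 2-cell-like state, is left out.

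None of the central pluripotency factors was called. *Pou5f1* had 1569.9 and 1521 CPM in wt and 1387 and 1522 in KO, and *Nanog* had 818 and 840.1 in wt, 1000.5 and 796 in KO, with 1481 in the CRISPR control, and neither passed the test (FDR = 0.73 and 0.66). *Sox2* was 501 and 516 CPM in wt and 685 and 642 in KO, a difference under 2-fold (log2 fold change 0.38 ± 0.10 (SE), FDR = 0.045). Of 19 core genes tested 1 was called: *Lin28a*, an RNA-binding protein that blocks let-7 maturation, had 62.8 and 123 CPM in wt and 25.9 and 38.4 in KO (log2 fold change -1.53, FDR = 0.014), and -0.97 without wt replicate 2. Of 33 naive genes 2 were called higher and 1 lower, which is near the share of all genes. *Klf4*, a naive factor under LIF and STAT3 control, rose from 222 and 224 CPM in wt to 656 and 691 in KO, and the CRISPR control had 619 (log2 fold change 1.595 ± 0.18 (SE), FDR = 0.0019). *Klf4* was the only naive gene whose call held with each library left out. *Esrrb* (0.089), *Tfcp2l1* (0.35), *Zfp42* (-0.31) and *Prdm14* (0.38) were not called.

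Genes of the formative and primed states went both ways, with 6 of 23 called higher and 4 lower and a median of 0.049 that turned to -0.23 without KO replicate 1. *Dusp6*, a phosphatase induced by ERK, rose from 2.02 and 2.73 CPM in wt to 5.55 and 9.06 in KO (log2 fold change 1.62 ± 0.29 (SE), FDR = 0.011). *Tcf15*, a transcription factor of cells primed for differentiation, had 10.4 and 9.11 CPM in wt and 19.7 and 26.1 in KO, while the CRISPR control stayed at 9.56 (log2 fold change 1.23 ± 0.20 (SE), FDR = 0.0076). *Dnmt3a*, a de novo DNA methyltransferase on chromosome 12, fell from 229 and 256 CPM to 96.8 and 58.9 (log2 fold change -1.64 ± 0.25 (SE), FDR = 0.0055). The defining genes *Fgf5* (-1.37) and *Otx2* (-0.45) did not pass, and *Otx2* was called only without KO replicate 1 (-1.70, FDR = 0.049).

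Of 18 genes of the DNA methylation list, enzymes and their regulators, 3 were called lower and none higher, and *Dnmt3a* and *Dnmt3l* held with each library left out. The third, *Dppa3*, codes for a germ cell and naive state protein that is not an enzyme, and it had 38.2 and 37.3 CPM in wt and 23.7 and 11.03 in KO (log2 fold change -1.12, FDR = 0.044). Its call was lost without wt replicate 1 (-1.10, FDR = 0.15), without wt replicate 2 (-1.14, FDR = 0.11) or without KO replicate 2, where it missed 2-fold (-0.67). *Dnmt3l*, the cofactor of the de novo enzymes, had 41.8 and 49.9 CPM in wt, 7.44 and 17.3 in KO, with 6.34 in the CRISPR control (log2 fold change -1.89 ± 0.32 (SE), FDR = 0.0085). *Dnmt3b* was lower by less than 2-fold (log2 fold change -0.52, FDR = 0.018), whereas *Dnmt1* (0.15) and *Tet1* (-0.11) did not pass. *Tet2* had 155 and 198 CPM in wt and 340.2 and 344 in KO, just under 2-fold (log2 fold change 0.96 ± 0.17 (SE), FDR = 0.011), and it was called without wt replicate 2 (1.15, FDR = 0.025). The CRISPR control had lower *Dnmt3a* (112 CPM) and *Dnmt3b* (75.8) and higher *Tet2* (383) than either wt library.

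Germline genes that DNA methylation keeps silent were called in 8 cases of 54 (14.8%, against 8.07% of all genes tested). Of these, 7 were lower and 1 was higher, and the median of the list was -0.048. *Stra8*, which starts meiosis in response to retinoic acid, fell most. The RNA helicase gene *D1Pas1* fell from 94.3 and 101 CPM to 38.5 and 36.5, with 49.2 in the CRISPR control (log2 fold change -1.38 ± 0.11 (SE), FDR = 0.00061), and the zona pellucida gene *Zp3* fell as well (-1.702). *Stk31* had 55.3 and 38.2 CPM in wt, 20.4 and 10.99 in KO, with 77.4 in the CRISPR control, and it lies in the chromosome 6 stretch. In the CRISPR control the median of this list was 0.72 above wt. Of 54 imprinted genes 7 were lower and none was higher (12.96% called). *Igf2*, a growth factor expressed from the paternal allele, fell from 10.4 and 13.01 CPM to 1.24 and 1.62 (log2 fold change -3.03 ± 0.21 (SE), FDR = 0.00037). *H19*, its maternally expressed neighbor, fell from 17.6 and 15.2 to 4.36 and 5.95 (log2 fold change -1.67 ± 0.31 (SE), FDR = 0.012). *Phlda2* (-1.86), *Ascl2* (-2.195) and *Dio3* (-1.82) fell too, and at *Igf2*, *Phlda2*, *Ascl2* and *Dio3* the CRISPR control was on the KO side.

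Trophoblast genes were called mainly downward: 8 of 31 tested were called lower and 1 higher, and 3 of the 8 held with each library left out. Besides *Plet1*, these were *Krt19*, a keratin of simple epithelia, with 4.23 and 2.12 CPM in wt and 0.348 and 0.0623 in KO (log2 fold change -3.97 ± 0.82 (SE), FDR = 0.018), and *Ascl2*, a trophoblast regulator (-2.195). *Gata2*, which lies in the chromosome 6 stretch, had 15.3 and 23.5 CPM in wt, 3.13 and 4.45 in KO, with 35.9 in the CRISPR control (log2 fold change -2.35, FDR = 0.024), and its call was lost without KO replicate 1 (-2.12, FDR = 0.11). *Elf5* and *Eomes*, which define trophoblast stem cells, were not called. *Cdx2*, at 0.371 and 0.609 CPM in wt and 0.381 and 5.42 in KO, was not called either (log2 fold change 2.57 ± 1.07 (SE), FDR = 0.15), although it was without KO replicate 1 (3.47, FDR = 0.024). The summed level of the whole list was 3191 and 3219 CPM in wt and 3816 and 3539 in KO, which is above wt.

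Among 32 primitive and visceral endoderm genes 6 were lower and 2 higher (25.0% called, against 8.07% of all genes tested). *Dab2*, an endocytic adaptor of endoderm, fell from 30.3 and 42.1 CPM to 5.13 and 3.58, with 20.1 in the CRISPR control (log2 fold change -3.05 ± 0.36 (SE), FDR = 0.0021). *Lrp2*, the receptor megalin whose uptake DAB2 serves, fell from 14.1 and 13.5 to 3.21 and 3.71, with 8.12 in the control (log2 fold change -1.999 ± 0.44 (SE), FDR = 0.022). At both genes the CRISPR control stood on the wt side, at least 2-fold above KO. *Serpinh1*, a collagen chaperone, fell from 199 and 232 to 50.9 and 45.3 CPM (log2 fold change -2.16 ± 0.30 (SE), FDR = 0.0042). The collagen gene *Col4a2* rose from 31.4 and 33.9 CPM to 77.3 and 58.5, with 122 in the control (log2 fold change 1.06, FDR = 0.012). *Fst*, given above, was the other member called higher. The endoderm regulators *Gata4*, *Gata6* and *Sox17* were at or under 2.39 CPM in every wt and KO library, and none was called. *Gata6* was called higher without wt replicate 1 (1.61, FDR = 0.085).

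Lineage genes of later stages were called in both directions. Of 33 primitive streak and mesoderm genes 25 passed the filter on low counts, and 4 were called higher and 2 lower (24% of those tested). Of 31 neuroectoderm genes 14 passed it, with 3 called higher and 2 lower (35.7%). Of 30 endothelial and blood genes 22 passed it, with 2 called higher and 4 lower (27.3%). Of all genes tested 8.07% were called. In the same order, 4, 3 and 2 of the calls in these lists held with each library left out. *Kdr*, the VEGF receptor of endothelial precursors, rose from 0.479 and 0.871 CPM to 5.996 and 8.33, and the CRISPR control had 5.12 (log2 fold change 3.41 ± 0.60 (SE), FDR = 0.010). *Sox18*, a transcription factor of endothelium, rose from 1.11 and 0.488 CPM to 2.92 and 2.66, with 4.33 in the CRISPR control (log2 fold change 1.79 ± 0.43 (SE), FDR = 0.031). *Evx1*, a streak gene in the chromosome 6 stretch, fell (-3.304). *Foxf1*, among the higher mesoderm calls and those that held, was at 0.0154 and 0 CPM in wt and 0.116 and 0.218 in KO. That is near the lower limit of detection, and it passed the filter on low counts only through the D15 libraries. *T* had 8.05 and 7.17 CPM in wt and 11.6 and 21.4 in KO and was not called (log2 fold change 1.12, FDR = 0.22), except in a fit of the 4 D0 libraries alone (1.12, FDR = 0.056). Both neurofilament genes rose, *Nefm* from 11.6 and 11.6 CPM to 41.7 and 95.7 (log2 fold change 2.57 ± 0.36 (SE), FDR = 0.0043) and *Nefl* from 38.1 and 32.7 to 72.03 and 94.4 (log2 fold change 1.23 ± 0.19 (SE), FDR = 0.0065). *Tubb3*, a tubulin of neurons, went the other way, from 77.4 and 77.6 CPM to 30.5 and 20.9 (log2 fold change -1.59 ± 0.22 (SE), FDR = 0.0038), and it lies in the chromosome 8 windows where KO and the CRISPR control both differed from wt.

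Genes of the retinoic acid pathway were called at 5 of 20, or 25.0%, and all 5 calls held with each library left out, while the median of the list was 0.0016. Retinol is oxidized to retinal, turned into retinoic acid by ALDH1A enzymes and cleared by CYP26A1, while DHRS3 returns retinal to retinol. Retinoic acid acts through receptors of the RAR family on elements made of repeated hexamers in target genes. Upstream windows of 250 bases before the start of *Rarb*, *Stra8* and *Cyp26a1* (RefSeq, GRCm38.p6) are printed since these are textbook targets of retinoic acid of which *Rarb* rose, *Stra8* fell and *Cyp26a1* was not called. *Rarb* lies on chromosome 14 (16575477 to 16575726, minus strand), *Stra8* on chromosome 6 (34920698 to 34920947, plus strand), outside the stretch without *cast* reads, and *Cyp26a1* on chromosome 19 (37697558 to 37697807, plus strand). Capitals mark the receptor hexamer AGGTCA, which 14.02% of all RefSeq windows hold, its variant AGTTCA, which 11.8% hold, and the variant GGTTCA, which 8.85% hold, searched on both strands. No marked hexamer overlaps another.
*Rarb*: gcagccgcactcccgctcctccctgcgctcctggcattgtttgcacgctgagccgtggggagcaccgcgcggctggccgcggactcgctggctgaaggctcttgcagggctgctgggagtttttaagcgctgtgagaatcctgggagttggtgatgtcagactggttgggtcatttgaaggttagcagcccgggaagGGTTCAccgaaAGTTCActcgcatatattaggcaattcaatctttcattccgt
*Stra8*: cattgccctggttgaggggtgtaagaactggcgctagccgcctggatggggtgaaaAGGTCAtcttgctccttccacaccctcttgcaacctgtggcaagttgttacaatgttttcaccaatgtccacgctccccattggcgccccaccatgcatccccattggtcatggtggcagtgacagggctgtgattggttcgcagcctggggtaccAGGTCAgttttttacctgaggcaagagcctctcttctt
*Cyp26a1*: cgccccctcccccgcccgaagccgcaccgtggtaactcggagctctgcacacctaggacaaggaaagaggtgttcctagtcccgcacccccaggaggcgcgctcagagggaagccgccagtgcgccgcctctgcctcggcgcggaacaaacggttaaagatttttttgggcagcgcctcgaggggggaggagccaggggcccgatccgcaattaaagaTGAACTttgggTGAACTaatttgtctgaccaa
In *Rarb* and *Cyp26a1* a pair of hexamers stands 5 bases apart in the same orientation, an arrangement that 18 of 32851 RefSeq windows hold (0.0548%). *Stra8* has AGGTCA at 194 and at 38 bases before the start, in the same orientation. Of the other members called, *Dhrs3* had none of the 3 hexamers in its 3 windows, and 30.7% of all windows hold at least 1. For *Aldh1a3* no window was available, so it was not searched. A match is a description of these letters only.

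At these genes the levels diverged. *Rarb* rose from 0.216 and 0.453 CPM in wt to 2.14 and 2.35 in KO, while the CRISPR control stayed at 0.548, with wt (log2 fold change 2.75 ± 0.34 (SE), FDR = 0.0027). All these values were under the 2.5 CPM of the filter on low counts, and *Rarb* passed it only through the D15 libraries. *Stra8* fell from 13.9 and 9.93 CPM to 1.54 and 0.919, and the CRISPR control fell with KO to 2.41 (log2 fold change -3.28 ± 0.31 (SE), FDR = 0.0012). *Cyp26a1* was at 0.139 and 0.104 CPM in wt and 0.248 and 0.218 in KO, near the lower limit of detection, and was not called. *Dhrs3* fell from 12.7 and 9.32 CPM to 4.59 and 4.05 (log2 fold change -1.35 ± 0.23 (SE), FDR = 0.0084), with the CRISPR control in between at 6.17 CPM. *Aldh1a3* rose, as given above, with the CRISPR control above both KO libraries. The receptors *Rara* (-0.38) and *Rarg* (-0.72, FDR = 0.028) were not called.

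Nodal, activin and BMP genes were called at 8 of 50, 4 in each direction, and 4 held with each library left out. Both *Lefty* genes, targets of Nodal, fell: *Lefty1*, a secreted Nodal inhibitor, from 177 and 159 CPM to 41.9 and 41.2 (log2 fold change -2.02 ± 0.13 (SE), FDR = 0.00028) and *Lefty2* from 633 and 679 to 256 and 349.6 (log2 fold change -1.12, FDR = 0.010). Without KO replicate 1 *Lefty2* missed 2-fold (-0.91). *Nodal* itself did not differ beyond its spread, with 107 and 119.8 CPM in wt, 103 and 112 in KO, with 71.8 in the CRISPR control. *Fst* and *Inhbb*, which codes for an activin subunit, rose, the latter from 7.26 and 5.42 CPM to 13.02 and 21.8 (log2 fold change 1.46 ± 0.28 (SE), FDR = 0.014). The BMP target *Id3* rose (11.3 and 15.9 CPM in wt, 36.1 and 42.3 in KO, FDR = 0.041) but was not called without wt replicate 1 (1.30, FDR = 0.21) or without KO replicate 2 (1.41, FDR = 0.14). *Id1* was not called (0.62). The CRISPR control was below KO at *Lefty1* (19.3 CPM) and *Lefty2* (214) and above KO at *Id3* (79.6).

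FGF and ERK genes were called at 11 of 37 (29.7%, against 8.07% of all genes tested), with 7 higher and 4 lower. The median of the list was 0.0054. Feedback inhibitors of ERK were among the higher ones: *Spred1* rose from 11.8 and 13.3 CPM to 32.1 and 46.7 (log2 fold change 1.65 ± 0.30 (SE), FDR = 0.011), and *Dusp6* rose as given above. *Fgf1* (2.67) rose and *Fgf10* (-1.84), ligands both, fell. The other members called lower were *Ier3* (-1.45, FDR = 0.016), *Fgfbp1* (-1.22) and *Fos* (-1.16), the last in a window of unequal maternal share. *Fgf4*, the main FGF of ES cells, was at 352 and 351 CPM in wt and 335 and 269 in KO and was not called, nor were *Fgfr1* (-0.30) and *Fgfr2*. Of 46 Wnt genes 4 were called higher and none lower, with a median of 0.35, and none of the 4 held with each library left out. The Wnt targets *Axin2* (9.59 and 20.9 CPM in wt, 11.2 and 42.3 in KO) and *Lef1* (2.76 and 3.59 CPM in wt, 2.302 and 11.8 in KO) were highest in KO replicate 2 and were called only without KO replicate 1 (1.47, FDR = 0.055, and 1.90, FDR = 0.0041). In the Notch list *Dtx4* rose (1.76), and *Notch1* (-0.31) and *Hes1* (0.022) were not called.

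Epithelial genes were the list with the most members called lower: 12 of 43 were lower and 1 higher, or 30.2% called, and 7 lower genes held with each library left out. *Krt42*, an ES cell keratin, fell from 59.5 and 88.9 CPM to 13.3 and 7.49 (log2 fold change -2.84 ± 0.30 (SE), FDR = 0.0013). *Dsp*, which anchors desmosomes, fell from 36.8 and 38.6 CPM to 16.1 and 11.9 (log2 fold change -1.43 ± 0.21 (SE), FDR = 0.0051). The polarity gene *Crb3* (-1.81), the tight junction gene *Cldn6* (-1.23), the epithelial repressor *Ovol2* (-1.91) and the splicing regulator *Esrp1* (-1.34) fell as well. *Esrp1* reached FDR = 0.10 and was not called in a fit of the 4 D0 libraries alone. *Crb3* had 1.07 and 1.78 CPM in wt and 0.431 and 0.374 in KO. *Ovol2* had 0.958 and 1.03 CPM in wt and 0.133 and 0.389 in KO. *Esrp1* had 0.664 and 0.975 CPM in wt and 0.298 and 0.343 in KO. *Crb3*, *Ovol2* and *Esrp1* passed the filter on low counts only through the D15 libraries, and all were among the 7 lower genes that held. *Cdh1*, which codes for E-cadherin, was lower by less than 2-fold, at 557 and 595 CPM in wt and 316 and 359 in KO, with 447 in the CRISPR control (log2 fold change -0.77 ± 0.11 (SE), FDR = 0.0051), and it lies in the chromosome 8 windows. *Grhl2*, a regulator of epithelial genes, had 7.92 and 6.83 CPM in wt, 3.296 and 3.597 in KO, with 10.5 in the CRISPR control (log2 fold change -1.097 ± 0.14 (SE), FDR = 0.0033), and it missed 2-fold without wt replicate 1 (-0.98, FDR = 0.021). The CRISPR control was thus at or above wt at *Grhl2* and near KO at *Krt42* (11.6 CPM) and *Dsp* (15.3).

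Basement membrane and collagen genes were called at 14 of 46, 11 lower and 3 higher. *Col5a3* fell from 10.1 and 10.1 CPM to 1.06 and 0.607, with 0.563 in the CRISPR control (log2 fold change -3.600 ± 0.30 (SE), FDR = 0.00079). *Lama3*, a chain of epithelial laminin, fell from 45.02 and 54.2 to 16.1 and 12.4 CPM, while the CRISPR control had 53.3, with wt (log2 fold change -1.799 ± 0.25 (SE), FDR = 0.0041). *Col11a1*, a fibrillar collagen, rose from 1.16 and 1.78 to 12.8 and 8.63 CPM, with 2.96 in the CRISPR control (log2 fold change 2.87 ± 0.28 (SE), FDR = 0.0012). Of 33 feeder fibroblast genes tested, 8 were lower and 3 higher, and their median of -1.18 turned to 0.0065 without wt replicate 2. *Thy1* fell from 16.9 and 9.59 CPM to 2.09 and 2.09 (log2 fold change -2.67 ± 0.30 (SE), FDR = 0.0017) and *Col1a1* from 4.57 and 8.88 to 2.103 and 1.81 (log2 fold change -1.78 ± 0.29 (SE), FDR = 0.0071), both feeder and matrix genes, while *Col6a3* rose from 1.097 and 1.36 to 4.704 and 6.07 (log2 fold change 2.14 ± 0.22 (SE), FDR = 0.0013). The summed feeder level was lower in KO than in wt, and so was that of the CRISPR control, and its part in the matrix genes was not tested. Of 28 genes of mesenchymal transition 4 were lower and 1 higher, and their median of -0.26 turned to 0.28 without wt replicate 2. *Snai1* and *Zeb1* were not called (0.24 and 0.36).

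**Figure D5:**
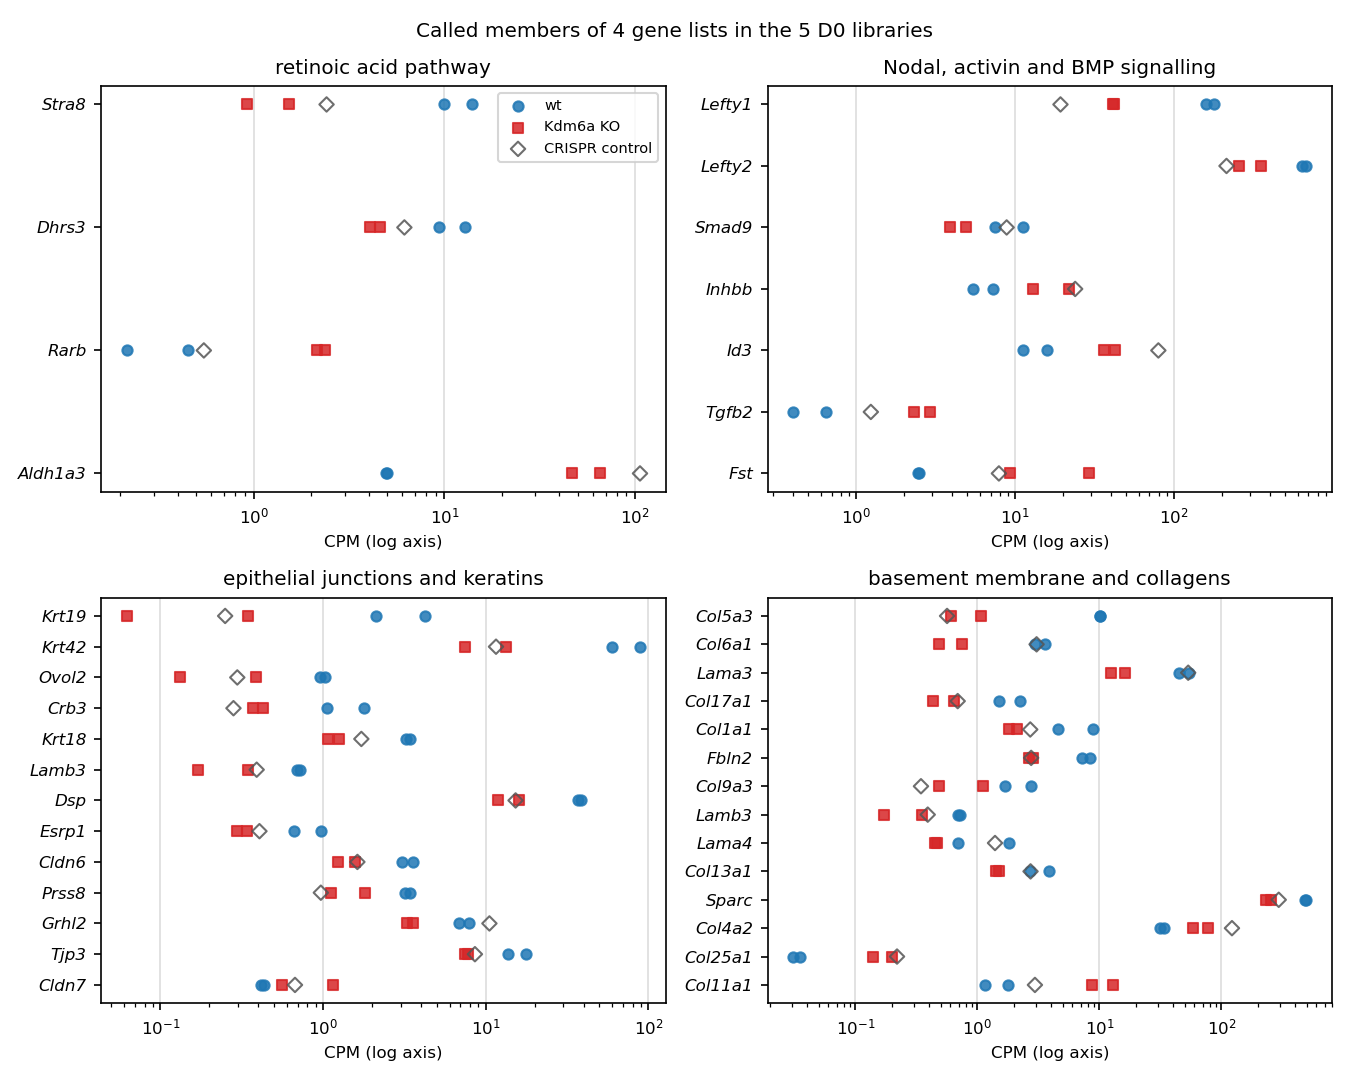
CPM on a log axis of called members of 4 lists in wt (blue circles), KO (red squares) and CRISPR control (open diamonds) libraries at D0. *Rarb*, *Lama3* and *Col6a1* show the CRISPR control with wt, whereas *Krt42*, *Dsp* and *Col5a3* show it with KO.

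Axon guidance genes were called at 10 of 52, 6 higher and 4 lower, and 4 of the 10 held with each library left out. *Unc5b*, a netrin receptor, fell from 13.4 and 24.1 CPM to 3.68 and 3.61 (log2 fold change -2.36 ± 0.42 (SE), FDR = 0.010), and *Igsf9* fell (-1.77), while the ephrin receptor *Epha7* (1.55) and the secreted ligand *Slit3* (2.35) rose. Hypoxia response genes were called only downward, 4 of 27 (14.8%, against 8.07% of all genes tested). *Bhlhe40*, a clock and hypoxia repressor, fell from 82.8 and 58.4 CPM to 18.4 and 15.8, with 15.7 in the CRISPR control (log2 fold change -2.05 ± 0.17 (SE), FDR = 0.00081). *Kdm3a*, an H3K9 demethylase induced by hypoxia, fell from 304 and 358 to 145 and 142, with 308 in the control (log2 fold change -1.21 ± 0.13 (SE), FDR = 0.0016), and it lies in the chromosome 6 stretch. *Ndrg1* fell too (-1.37), whereas *Vegfa* was not called (-0.31). In glycolysis 2 of 22 genes were lower and neither call held with each library left out. *Pfkp* had 652 and 476 CPM in wt and 261 and 233 in KO (log2 fold change -1.19 ± 0.17 (SE), FDR = 0.0041), and it missed 2-fold without wt replicate 1 (-0.95). *Ldha* was lower by less than 2-fold (-0.82, FDR = 0.028) and was called without wt replicate 2 (-1.02) or without KO replicate 1 (-1.09).

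Growth and stress programs differed in their share of calls, against 8.07% of all genes tested. Of 35 cell cycle genes 1 was called (2.86%), of 34 p53 targets 1 (2.94%), and of 28 cholesterol synthesis genes none. The interferon and antigen presentation list had 13.3% called. *Cdkn1a* (0.067) and *Mdm2* (-0.13) were not called. The 4 interferon and antigen presentation genes called were all lower, of 30, and *Ifi27* (-3.696) and *Rsad2* (-1.94), which held with each library left out, both lie on chromosome 12. *Rhox5*, a homeobox gene of the X-linked *Rhox* cluster, fell from 745 and 422 CPM to 153 and 90.5, with 347 in the CRISPR control (log2 fold change -2.26 ± 0.31 (SE), FDR = 0.0037).

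Among chromatin genes, 1 of 13 genes of the PRC2 list (7.69%) and 1 of 28 of the related PRC1 list (3.57%) were called, against 8.07% of all genes tested. Both calls were rises, of *AU022751* (1.29) and *Scml2* (1.59), with the CRISPR control on the KO side. *Scml2* lies in a window of unequal maternal share. None of 18 genes of the KDM6 and KMT2C/KMT2D list was called, and *Kdm6b*, the other H3K27 demethylase, had 99.6 and 111 CPM in wt and 92.2 and 88.2 in KO (log2 fold change -0.22 ± 0.14 (SE), FDR = 0.32). *Uty*, the Y-linked paralog, had at most 2 reads in any D0 library of these female cells. *Ezh2*, the catalytic subunit of PRC2, had 217 and 189.8 CPM in wt, 126 and 133 in KO, with 287 in the CRISPR control (log2 fold change -0.65 ± 0.12 (SE), FDR = 0.012), a difference under 2-fold at a gene that lies in the chromosome 6 stretch. Its maternal share was 54.7% and 55.4% in wt and 100% and 99.9% in KO. *Eed* (-0.39) and *Suz12* (0.32) were not called. On the X chromosome, *Xist* was at 14.1 and 8.62 CPM in wt and 21.9 and 21.9 in KO, with no call (log2 fold change 0.95 ± 0.45 (SE), FDR = 0.21). *Tsix* was at 59.99 and 54.4 CPM in wt and 58.8 and 67.1 in KO and was not called either (FDR = 0.74). *Xist* and *Tsix* overlap on opposite strands and the counting is not stated to use strand, so reads from their overlap cannot be told apart.

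A smaller set of genes separated KO from both wt and the CRISPR control. Of the 136 genes with the CRISPR control on the wt side (269 without KO replicate 1), 18 lay in the chromosome 6 stretch, and 109 lay outside every window with a difference in allelic share, 66 lower and 43 higher. Among these 109 genes, *Xpnpep2*, an aminopeptidase gene on the X, fell from 18.4 and 16.7 CPM to 2.04 and 1.31, with 8.72 in the CRISPR control (log2 fold change -3.39 ± 0.30 (SE), FDR = 0.00097). *Myh13*, a muscle myosin gene, fell from 34.3 and 40.2 to 6.74 and 6.07, with 20.7 in the control (log2 fold change -2.54 ± 0.17 (SE), FDR = 0.00032). *Btk* (-2.76) and *Sash3* (-3.36), X-linked signaling genes of blood cells, and the peroxidase gene *Epx* (-2.93) fell. *Tlr2*, a receptor of innate immunity, rose from 5.11 and 6.48 CPM to 44.5 and 34.9, with 8.86 in the control (log2 fold change 2.78 ± 0.28 (SE), FDR = 0.0012). *Casp8*, the initiator caspase of death receptors, rose from 4.96 and 4.701 to 16.7 and 13.9, with 4.82 in the control (log2 fold change 1.66 ± 0.21 (SE), FDR = 0.0030). *Gsx2* (2.595), *Rhbg* (2.53), *Hs3st1* (1.996), *Hopx* (1.99), *Tas1r1* (1.81) and *3632451O06Rik* (1.52) rose. *Retsat*, which saturates retinol, fell from 68.2 and 55.5 CPM to 10.98 and 12.1 while the CRISPR control had 74.8 (log2 fold change -2.42 ± 0.16 (SE), FDR = 0.00032), and it lies in the chromosome 6 stretch. Of the 20 genes called when the CRISPR control counted as wt, *Gimap9*, *Nod1*, *Retsat* and *Kdm3a* lie in that stretch, and *Tlr2*, *Casp8*, *Hopx* and *Tas1r1* were among the 8 higher ones.

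The same genes were read in the embryoid bodies of D15, in 2 wt and 2 KO libraries. At D15, 14.8% of the genes tested were called between KO and wt. Of the 653 genes lower in KO at D0, 222 were also called lower at D15, 49 were called higher and 382 were not called. Of the 406 genes higher at D0, 51 were called higher at D15, 100 were called lower and 255 were not called. For the lower genes the median log2 fold change went from -1.56 at D0 to -0.52 at D15, and for the higher genes from 1.31 to -0.14. The interaction of KO and day was called for 17.1% of all genes tested and for 607 of the genes called at D0, whose choice used the same D0 values. *Xpnpep2* (-3.39 at D0, -3.46 at D15), *Dab2* (-3.05, -2.71) and *Crxos* (-3.51, -3.71) were called lower on both days, whereas *Rarb* (2.75, -4.47), *Kdr* (3.41, -2.79) and *Col6a3* (2.14, -4.22) were called higher at D0 and lower at D15.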

How the data were processed

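RNA-seq of the *Tsix*-stop line came from poly(A) libraries read as 75-base single ends. The submitters' processing notes name TopHat2 (2.1.1), Bowtie2 (2.4.5) and mm10. The authors deposited, for each gene, expected counts assigned with the 129 genome, the *cast* genome or either, beside SNP read counts of each allele. The gene annotation and the strand setting of the counting are not given in the sources used here. In the column of diploid counts 7.10% of values were not whole, so the expected counts deposited were rounded. The D0 libraries held 61955226 to 68796172 counts and 10701004 to 12095548 SNP reads.

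Genes with 2.5 CPM in at least 2 libraries were tested with edgeR (4.0.16): TMM factors over all 10 libraries, then a quasi-likelihood fit of the 8 wt and KO libraries of D0 and D15, with Benjamini-Hochberg adjustment (FDR). The filter counted the D0 and D15 libraries together, so a gene low at D0 could be tested through D15. Calls needed an FDR of at most 0.1 and 2-fold. SE is the log2 fold change divided by the square root of its F statistic. TPM used GENCODE vM21 exon lengths. Distances to the CRISPR control had 0.1 CPM added, and maternal (strain-129) shares needed 20 SNP reads per gene and library. A window or stretch of shares was defined after the allelic data were seen. An exact permutation test of 2 against 2 libraries cannot go below 0.333 and was not used. The fit was tested on simulated data.

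Named genes were *Kdm6a*, *Xist*, *Tsix*, *Klf4* and *Sox2*, the 12 highest and 12 lowest called genes with 5 TPM and no overlap, the 10 highest and 10 lowest of these with the CRISPR control on the wt side, and up to 4 called members and the regulators of each list. A few genes that the rule names are not reported here. The libraries and the 38 lists were chosen with earlier results of these data known. Alternatives covered normalization, filter, DESeq2 (1.42.0), design, deposited column and each library left out.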

Additional observations from a re-analysis of the deposited data

Results flagged for a closer look

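At 607 of the 1059 genes called at D0 the difference between KO and wt was itself different at D15, by the interaction of KO and day in the same edgeR quasi-likelihood fit (FDR of at most 0.1 and 2-fold). The genes were chosen on the D0 values that the interaction also uses. The values that follow are the D15 minus D0 change of the log2 fold change, so a negative value means that KO was lower against wt at D15 than at D0. Among genes higher in KO at D0 the value was -6.08 for *Gm13889*, -4.94 for *Sp5*, -4.40 for *Ptgs2*, -3.53 for *Fst*, -3.15 for *Hs3st1*, -3.03 for *Nefm* and -2.77 for *Aldh1a3*. It was -1.93 for *Casp8*, -1.87 for *Tlr2*, -1.71 for *Fam159b*, -1.69 for *Tmem117*, -1.55 for *3632451O06Rik* and -1.37 for *Klf4*. *Xist*, which was not called at D0, had -2.79.

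Among genes lower in KO at D0 the value was 5.09 for *Ripply1*, 4.27 for *Liph*, 3.12 for *Gimap9*, 3.05 for *Lst1*, 2.89 for *Epx*, 2.84 for *Plet1*, 2.48 for *Slc41a3*, 2.47 for *Capg*, 2.20 for *Allc*, 2.20 for *Nod1* and 1.79 for *Arhgdib*. *Gimap9*, *Slc41a3*, *Capg* and *Nod1* lie in the stretch of chromosome 6 without *cast* reads in KO at D0.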

How the results depend on the processing

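The count of 1059 genes called at D0 stayed within 1.5 times under DESeq2 size factors, library totals, DESeq2's test, a fit of D0 alone, the *cast* or either-genome column, a filter on D0 libraries alone (756), without chromosomes 6, 8 and 12 (897) and without the windows of unequal maternal share (945) or the chromosome 6 stretch (1024), the last pair chosen after seeing the data. With no filter on low counts 1738 genes were called, 650 higher and 1088 lower, and 969 had an interaction with day. With the CRISPR control counted as wt 20 were called, 8 higher and 12 lower, although 1564 genes had an unadjusted p under 0.05. Here 4 single genes turned direction: *AU022751* (-0.012), *Scml2* (-0.15), *Hoxa10* (-0.24) and *Ccnd2* (-1.48). The causes were not tested.

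Leaving out each D0 library gave 819 to 1002 genes called, 298 to 379 higher, 510 to 638 lower and 487 to 612 with an interaction. The lone library of an arm was then assumed to vary like the other groups. The count with the CRISPR control on the wt side, 136, ranged from 99 to 269 and was highest without KO replicate 1. It was 265 at a distance of 1.5-fold and 83 with 1 CPM added. The maternal (strain-129) share of chromosome 6 was 5.92 percentage points higher in KO as a median over genes and 8.92 pooled over genes.

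With the replicate number as a block, 1046 genes were called, 402 higher, 644 lower and 604 with an interaction. Same-numbered wt and KO libraries at D0 did not deviate together (r = 0.014 across genes). Between D0 and D15 the same number gave r = 0.198 in KO, -0.156 in wt and 0.148 for wt at D0 with KO at D15, and with 2 numbers and no label that says what they mark, they were not taken to pair the libraries. Of 118 named genes called, 71 were tested and called under each of 14 alternatives of normalization, filter, tool, design, deposited column or left-out library, 11 were called wherever tested, and 36 were lost under at least 1. These 14 do not hold the CRISPR control counted as wt or the fits without regions.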

Other observations

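In the germline list the CRISPR control stood apart from both other groups, at a summed 2746 CPM against 1999.9 and 1572 in wt and 1678 and 1459 in KO. The summed level of the *Hox* list was 32.9 and 23.1 CPM in wt, 30.99 and 55.6 in KO, with 89.1 in the CRISPR control. *Nanog* was also highest in the CRISPR control, at 1481 CPM. These are values of 1 library.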
